A study of Mus musculus with 4 samples.

Results

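The genes described are 10 subunits and partners of the Sin3 corepressor and of the Bap1 deubiquitinase complex, both of which bind Ogt, the enzyme that attaches O-linked N-acetylglucosamine to nuclear and cytoplasmic proteins. They were taken by symbol from the deposited table, which names 20723 gene symbols, and all 10 were found, on 12 probe sets, each under its current symbol. Hdac1 and Foxk1 have 2 probe sets each and the other 8 genes have 1. Where a gene has several, the probe set with the highest mean over the arrays stands for it.

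The samples were E14 cells, an embryonic stem cell line of Ola129 mouse origin, grown on gelatin in serum with leukemia inhibitory factor. In the esiOgt group (n = 2) the cells were transfected with esiRNA, an enzymatically prepared mixture of short interfering RNAs, against Ogt. In the esiGFP group (n = 2) the esiRNA was a control directed at GFP. All 4 samples share the line, the medium and a harvest 48 h after a transient transfection, so the comparison is between a partial, short-term knockdown and a control transfection in 1 line. Each sample was read on 1 array as log2 expression, with array medians between 6.40 and 6.46. Whether the replicates were separate cultures is not stated in the labels. The p-values therefore rest on a spread between arrays that could be technical alone.

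The Sin3 complex is a scaffold that carries the histone deacetylases Hdac1 and Hdac2 to promoters, where removal of acetyl groups from histone tails lowers transcription. Sin3a is also one of the proteins through which Ogt reaches repressed promoters. Bap1 is a nuclear ubiquitin hydrolase which, with an Asxl protein as its activating partner, forms the Polycomb repressive deubiquitinase (PR-DUB) and removes ubiquitin from histone H2A. The same assembly holds Ogt, the coregulator Hcfc1 and the forkhead factors Foxk1 and Foxk2, which bring it to DNA and also bind Sin3.

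The labels were checked on the targeted gene first. Ogt read 9.73 and 10.09 in the esiOgt arrays, against 11.51 and 11.38 in the esiGFP arrays. Its log2 difference was -1.54 (SE 0.17, 95% interval -2.00 to -1.08), a level 2.91-fold lower in esiOgt cells, with an unadjusted p of 0.00057 and an adjusted p of 0.674 in limma. Both esiOgt arrays lay below both esiGFP arrays, and the level of O-GlcNAc itself was not measured. In bulk RNA such as this, fewer cells carrying a transcript and less of it per cell cannot be told apart. The 10 embryonic stem cell markers examined, among them Pou5f1, Nanog and Sox2, all read above the median of every array. Of the 10 fibroblast markers 3 did so (Col1a1, Col1a2 and Thy1, between 6.47 and 7.28). The dimmest, Postn, Lum and Dcn, stayed between 3.29 and 4.66. In the same way 2 of 5 trophectoderm and 2 of 5 endoderm markers read above every array's median. At an unadjusted p under 0.05 in limma stood 1 stem cell marker (Esrrb, higher by 0.31) and 1 fibroblast marker (Fbn1, higher by 0.54), and no trophectoderm or endoderm marker, where 6.06% of all gene symbols did.

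No difference between esiOgt and esiGFP cells passed the test for any of the 10 genes. In limma 0 of 10 had an adjusted p under 0.05, where 0 of 20723 gene symbols (0%) did, and 0 of 10 had an unadjusted p under 0.05, where 6.06% of gene symbols did. Of the 10, 4 had a higher mean in esiOgt cells (Sin3b, Sap30, Asxl2 and, on its brighter probe set, Foxk1) and 6 a lower one (Sin3a, Hdac1, Hdac2, Bap1, Asxl1 and Foxk2). With each array centred on its median Asxl1 joined the higher ones, at 0.0024. Their median log2 difference was -0.01, and over all gene symbols it was 0.00. The median size of the difference, whatever its sign, was 0.09 for the 10 genes and 0.13 over all gene symbols. The differences ran between -0.16 for Sin3a and 0.30 for Asxl2.

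The 95% intervals give a range for the size of a change, but they rest on the same spread between arrays, which could be technical alone. For all 10 genes the 95% interval of the difference lay within a 2-fold change in either direction, as it did for 18884 of the 20723 gene symbols. On the probe set that stands for each gene, the interval lay within 1.5-fold for 9 of the 10, with Asxl2 the exception. The same was so for 11575 of the 20723 gene symbols. The other Foxk1 probe set, a dimmer one, had a lower bound of -0.61, also beyond 1.5-fold. On the probe sets that stand for the genes, the lowest bound among the 10, -0.54 for Foxk2, lay above the upper bound of Ogt, -1.08. The replicate spread of these genes was small, with a median within-group SD of 0.09 against 0.13 over all gene symbols. All 10 genes read above the median of every array, as did 11448 of the 20723 gene symbols. The comparison with all gene symbols is thus not matched for level, and whether the smaller spread goes with level was not tested. The 10 intervals reached a median of 0.34 on the log2 scale to either side of the estimate.

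**Figure D1:**
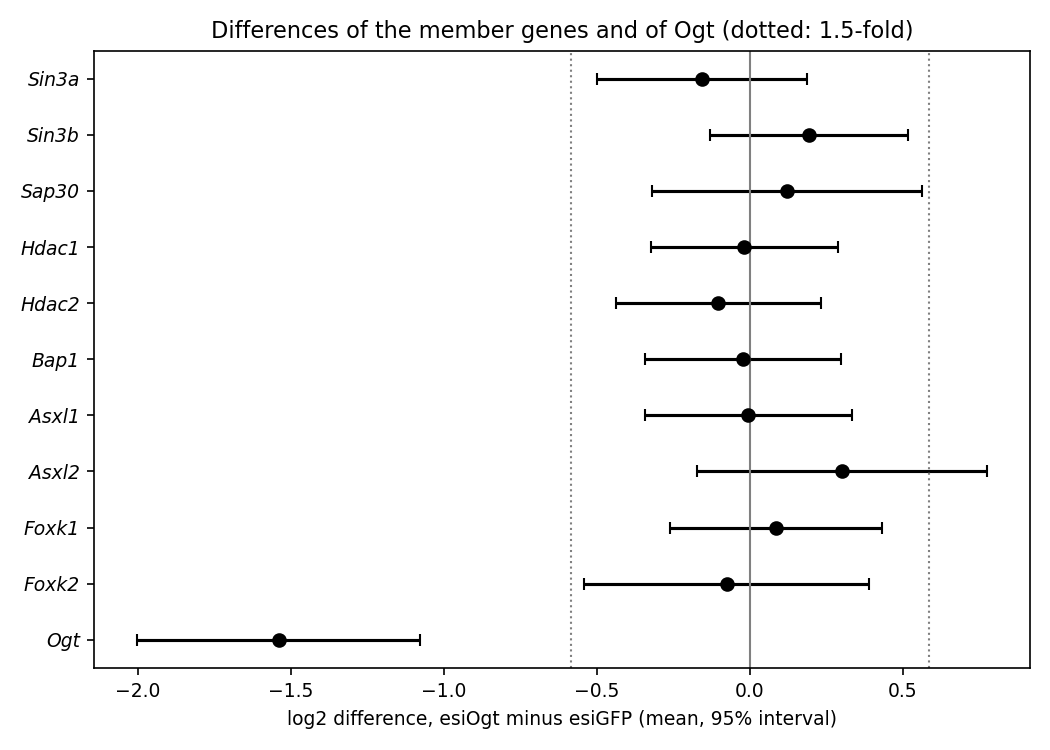
Log2 difference between esiOgt and esiGFP cells (x axis) for the 10 genes and Ogt (rows). Points are estimates from 2 arrays per group and bars are 95% intervals from limma. The intervals of the 10 genes all include 0, that of Asxl2 alone passes the dotted 1.5-fold line at 0.58, and that of Ogt runs between -2.00 and -1.08.

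The scaffolds of the corepressor were the members of the Sin3 group with the larger differences, in opposite directions. Sin3a, the scaffold that embryonic stem cells need for growth, read 10.34 and 10.17 in esiOgt arrays and 10.43 and 10.38 in esiGFP arrays. Both esiOgt arrays lay below both esiGFP arrays. The log2 difference was -0.16 (SE 0.13, 95% interval -0.50 to 0.19, adjusted p = 0.793 in limma), which did not pass the test, and it was -0.07 without esiOgt replicate 2 and -0.24 without esiOgt replicate 1. Sin3b, the paralogous scaffold, read 9.41 and 9.42 in esiOgt arrays and 9.28 and 9.16 in esiGFP arrays. Here both esiOgt arrays lay above both esiGFP arrays, by 0.19 on the log2 scale in the mean (SE 0.12, 95% interval -0.13 to 0.52, adjusted p = 0.736 in limma). In all, the groups did not overlap for 4 of the 10 genes (Sin3b and Asxl2 higher, Sin3a and Hdac2 lower in esiOgt cells), against 39.5% of all gene symbols.

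Sap30, the small subunit that tethers Sin3 to the deacetylases, varied more between replicates than between groups. It read 10.05 and 9.76 in esiOgt arrays and 9.89 and 9.68 in esiGFP arrays, and the groups overlapped. The log2 difference was 0.12 (SE 0.16), and without esiOgt replicate 1 it was -0.02.

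Hdac1 and Hdac2 encode the catalytic subunits. Hdac1 read 11.97 and 11.94 in esiOgt arrays and 11.98 and 11.97 in esiGFP arrays. All 4 values lay within 0.04 of each other, the narrowest range among the 10 genes, and the log2 difference was -0.02 (SE 0.11, 95% interval -0.32 to 0.29). Its other probe set read 11.04 and 10.97 in esiOgt arrays and 11.14 and 11.08 in esiGFP arrays, a difference of -0.11 (SE 0.12), without overlap between the groups. RefSeq lists a pseudogene of Hdac1, and the deposited table does not say which copy each probe set reads, so the level of this gene is uncertain to that extent. Hdac2 read 10.51 and 10.45 in esiOgt arrays and 10.51 and 10.65 in esiGFP arrays. The groups did not overlap, but the higher esiOgt value and the lower esiGFP value were 0.00023 apart. The log2 difference of Hdac2 was -0.10 (SE 0.12, 95% interval -0.44 to 0.23). It was -0.03 without esiGFP replicate 2 and -0.17 without esiGFP replicate 1.

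**Figure D2:**
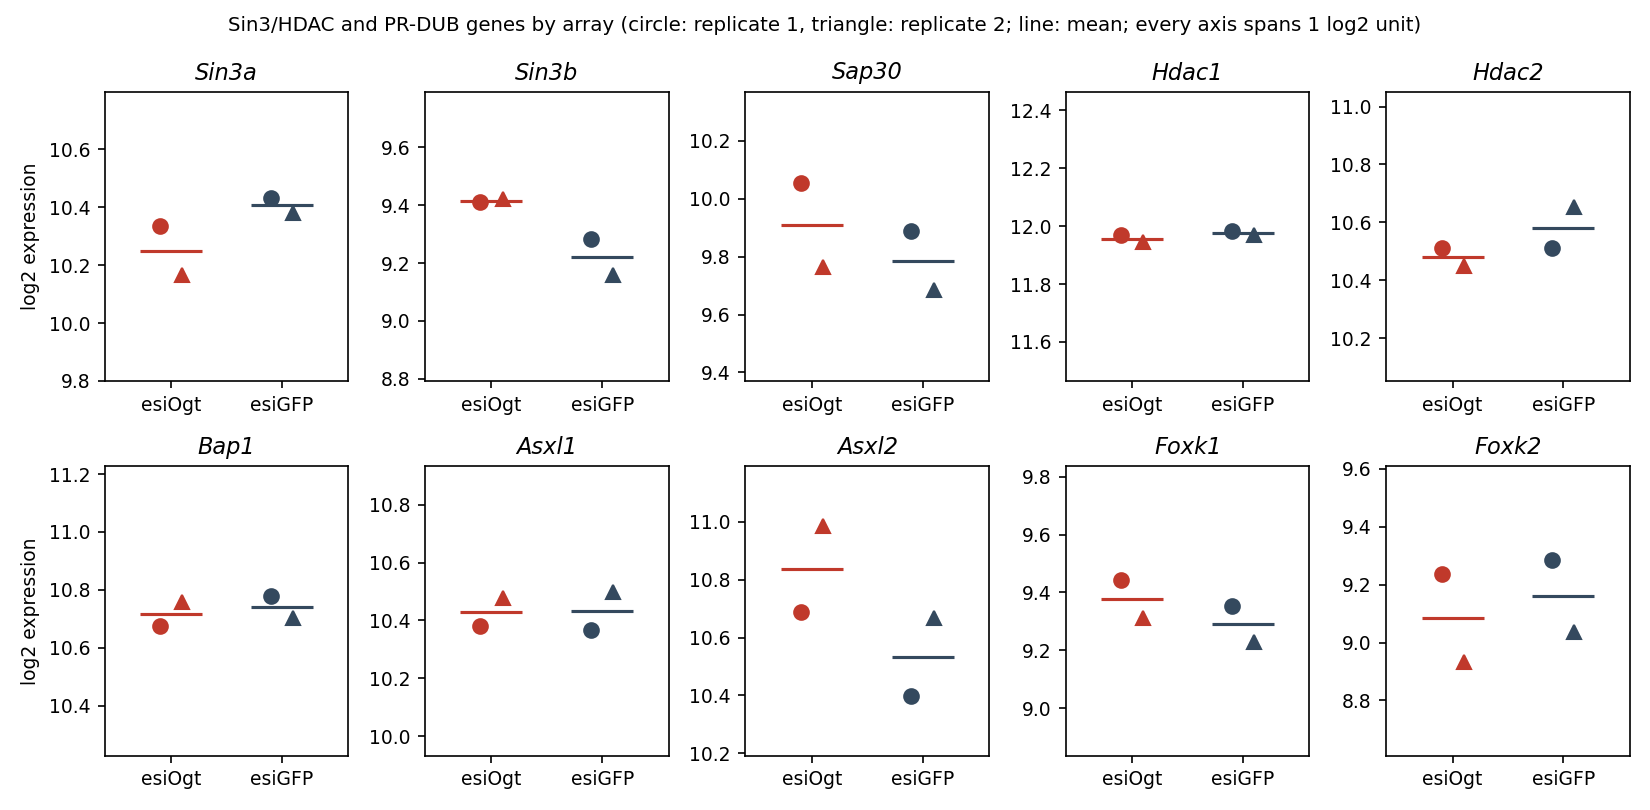
Log2 expression (y axes, each spanning 1 log2 unit) of the 10 genes in esiOgt and esiGFP cells. Each symbol is 1 array, a circle for replicate 1 and a triangle for replicate 2, and lines are group means. The groups are apart for Sin3a, Sin3b and Asxl2, nearly touch for Hdac2 and overlap for the other 6 genes.

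In the deubiquitinase complex the enzyme and its cofactor Asxl1 had differences near 0. Bap1 read 10.68 and 10.76 in esiOgt arrays and 10.78 and 10.70 in esiGFP arrays, and the groups were interleaved. The log2 difference was -0.02 (SE 0.12, 95% interval -0.34 to 0.30), and it turned to 0.02 without esiOgt replicate 1 and to 0.01 without esiGFP replicate 1. Asxl1, which activates Bap1 through its deubiquitinase adaptor domain, read 10.38 and 10.48 in esiOgt arrays and 10.37 and 10.50 in esiGFP arrays. The esiOgt values lay inside the range of the esiGFP values. The log2 difference was 0.00 to 2 decimals (SE 0.13, 95% interval -0.34 to 0.33), with 0.04 without esiOgt replicate 1 and 0.06 without esiGFP replicate 2.

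Asxl2, the alternative cofactor of Bap1, had the largest difference of the 10. It read 10.69 and 10.98 in esiOgt arrays and 10.40 and 10.67 in esiGFP arrays. Both esiOgt arrays lay above both esiGFP arrays, but the lower esiOgt value and the higher esiGFP value were 0.02 apart. The mean was 1.23-fold higher in esiOgt cells, a log2 difference of 0.30 (SE 0.18, 95% interval -0.17 to 0.78), with an unadjusted p of 0.156 and an adjusted p of 0.725 in limma. In each group the array of replicate 2 was the higher one, by 0.30 in esiOgt and 0.27 in esiGFP cells, about as much as the groups differed. Leaving out 1 array at a time gave differences between 0.15 and 0.45.

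No difference of the forkhead partners passed the test. Foxk1 read 9.44 and 9.31 in esiOgt arrays and 9.35 and 9.23 in esiGFP arrays, with overlap and a log2 difference of 0.09 (SE 0.13, 95% interval -0.26 to 0.43). The other Foxk1 probe set, a dimmer one, read 5.19 and 5.24 in esiOgt arrays and 5.47 and 5.54 in esiGFP arrays. On that probe set the groups were apart in the opposite direction, by -0.29 (SE 0.12, 95% interval -0.61 to 0.02, unadjusted p = 0.0619 and adjusted p = 0.683 in limma). The brighter probe set gave between 0.02 without esiOgt replicate 1 or without esiGFP replicate 2 and 0.15 without esiOgt replicate 2 or without esiGFP replicate 1. The mean of both probe sets gave -0.10, so no direction can be given for Foxk1. Foxk2 read 9.24 and 8.93 in esiOgt arrays and 9.28 and 9.04 in esiGFP arrays, with a difference of -0.08 (SE 0.17). That difference turned to 0.07 without esiOgt replicate 2 and to 0.05 without esiGFP replicate 1.

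Arrays of the same replicate number often deviated together. In 7 of the 10 the array of replicate 2 lay on the same side of replicate 1 in both groups, as in 68.2% of all gene symbols. For Sap30, Asxl1, Foxk1 and Foxk2 both gaps between replicates were larger than the difference between the groups, which was so for 33.7% of all gene symbols. In Sap30 the gap was -0.29 in esiOgt cells and -0.20 in esiGFP cells (replicate 2 minus replicate 1). In Foxk2 it was -0.30 in esiOgt cells and -0.25 in esiGFP cells. The labels do not say what the numbers mark.

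The members hold 4 pairs of paralogs, and each pair was compared within arrays. The level of one probe set cannot be read against that of another. A change in their log2 difference beyond the spread between arrays would mean that the 2 transcripts changed unequally. Sin3a minus Sin3b was 0.93 and 0.74 in esiOgt arrays and 1.15 and 1.22 in esiGFP arrays. The ratio of Sin3a to Sin3b was lower in both esiOgt arrays, with a change of -0.35 on the log2 scale (1.28-fold) and no overlap between groups. Asxl1 minus Asxl2 was -0.31 and -0.51 in esiOgt arrays and -0.03 and -0.17 in esiGFP arrays, a change of -0.31, again without overlap. Foxk1 minus Foxk2 was 0.21 and 0.38 in esiOgt arrays and 0.07 and 0.19 in esiGFP arrays, a change of 0.16 that became -0.03 with the mean of both Foxk1 probe sets. Hdac1 minus Hdac2 was 1.46 and 1.497 in esiOgt arrays and 1.47 and 1.32 in esiGFP arrays, and overlapped. An exact permutation test over the arrays (two-sided) returned p = 0.333 for the 3 pairs without overlap and p = 0.667 for Hdac1 minus Hdac2. The first is the lowest value 2 arrays per group can give, so none of the 4 contrasts can reach 0.05. Among single gene symbols the groups did not overlap for 39.5%, and the share over other gene pairs was not computed.

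**Figure D3:**
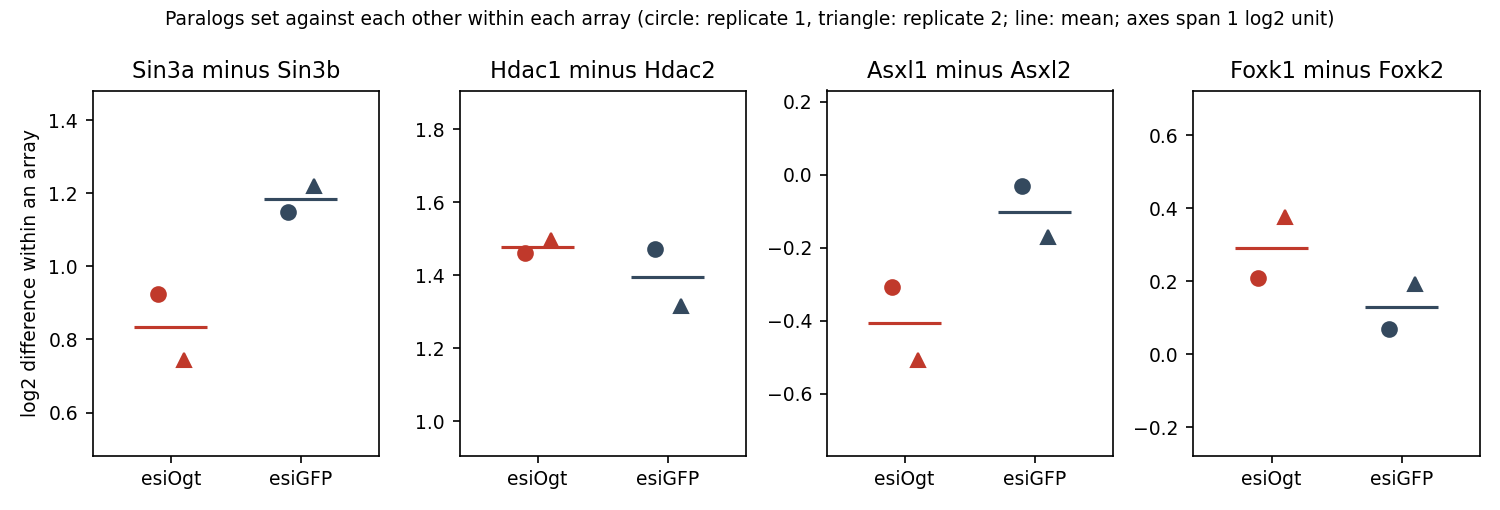
Log2 difference between 2 paralogs on the same array (y axes, each spanning 1 log2 unit) in esiOgt and esiGFP cells. Each symbol is 1 array and lines are group means. Sin3a minus Sin3b is lower in both esiOgt arrays (0.93 and 0.74) than in both esiGFP arrays (1.15 and 1.22), while Hdac1 minus Hdac2 overlaps.

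The promoters of the pairs Sin3a and Sin3b and Asxl1 and Asxl2 are printed because these pairs had the 2 larger contrasts, and because TET proteins and Ogt are known to sit at CpG-rich promoters in embryonic stem cells. Sequences are the 250 bases before each RefSeq start (GRCm38.p6, gene strand, 5′ to 3′), with every CpG in capitals. RefSeq gives 2 starts for Sin3a.
Sin3a, chr9:57071790-57072039, plus strand: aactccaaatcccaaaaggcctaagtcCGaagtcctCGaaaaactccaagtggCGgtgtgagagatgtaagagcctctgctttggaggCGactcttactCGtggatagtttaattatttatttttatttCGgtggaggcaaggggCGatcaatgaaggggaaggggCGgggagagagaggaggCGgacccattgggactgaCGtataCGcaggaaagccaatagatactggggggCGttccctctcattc
Sin3a, chr9:57076126-57076375, plus strand: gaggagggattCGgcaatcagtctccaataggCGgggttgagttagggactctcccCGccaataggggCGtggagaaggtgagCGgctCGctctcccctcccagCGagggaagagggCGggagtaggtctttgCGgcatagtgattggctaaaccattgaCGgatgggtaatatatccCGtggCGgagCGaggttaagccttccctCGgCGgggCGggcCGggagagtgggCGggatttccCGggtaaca
Sin3b, chr8:72723020-72723269, plus strand: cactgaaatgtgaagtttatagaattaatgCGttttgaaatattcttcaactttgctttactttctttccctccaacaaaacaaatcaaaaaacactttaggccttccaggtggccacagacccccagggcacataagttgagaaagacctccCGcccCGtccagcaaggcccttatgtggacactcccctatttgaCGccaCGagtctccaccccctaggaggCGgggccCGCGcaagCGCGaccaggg
Asxl1, chr2:153345580-153345829, plus strand: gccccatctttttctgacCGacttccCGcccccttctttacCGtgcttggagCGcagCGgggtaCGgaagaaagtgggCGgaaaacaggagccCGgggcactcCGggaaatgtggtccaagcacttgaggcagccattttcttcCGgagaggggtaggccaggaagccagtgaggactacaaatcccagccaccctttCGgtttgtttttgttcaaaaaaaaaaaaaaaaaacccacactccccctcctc
Asxl2, chr12:3426607-3426856, plus strand: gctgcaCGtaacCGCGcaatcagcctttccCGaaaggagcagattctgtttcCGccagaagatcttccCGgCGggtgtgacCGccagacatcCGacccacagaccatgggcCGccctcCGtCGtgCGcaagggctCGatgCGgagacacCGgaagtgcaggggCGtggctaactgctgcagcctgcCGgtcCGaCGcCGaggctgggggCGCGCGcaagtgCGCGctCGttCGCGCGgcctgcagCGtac

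These windows hold 12 and 19 CpGs for Sin3a, 10 for Sin3b, 11 for Asxl1 and 31 for Asxl2. The Asxl pair thus differs more in CpG number than the Sin3 pair. Whether CpG number bears on the contrasts was not tested. A table of 32851 such windows had a median of 6 CpGs, and 5.19% of them held as many as Asxl2. Windows were found for 8 of the 10 genes, 9 windows in all, with a median of 19 CpGs. Foxk2 had 48 CpGs, a number reached by 0.186% of windows, and Bap1 had 43, reached by 0.712%. Hdac2 had 27 and Sap30 had 18. The E-box CACGTG, the site of Max and its Mxd partners that recruit Sin3, was in the Bap1 window and in none of the other 8, and 6.02% of all windows hold it on either strand (the motif is its own reverse complement). The forkhead motif GTAAACA and the YY1 motif AAGATGGCG, searched on both strands, were in none of the 9, and 3.17% and 0.606% of all windows hold them.

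Around the members stand further subunits of the same complexes, listed from general knowledge of the complexes. Of 23 other Sin3/HDAC subunits and Sin3-recruiting factors 22 were measured (Rbbp4 was not among the symbols). In esiOgt cells 13 had a higher and 9 a lower mean. The groups did not overlap for 12 of the 22, against 39.5% of all gene symbols. None of the 22 passed an adjusted p of 0.05 in limma. The median log2 difference was 0.04, and 2 stood at an unadjusted p under 0.05 (6.06% of all gene symbols did). The count was 0 without esiOgt replicate 2 or without either esiGFP array and 4 with a mean over each gene's probe sets, which also gave a median of -0.01 with 11 of 22 higher. Mxd4, a Max partner that recruits Sin3, read 7.49 and 7.22 in esiOgt arrays and 7.80 and 7.78 in esiGFP arrays, a difference of -0.44 (SE 0.15, adjusted p = 0.674). Brms1l, a Sin3 subunit, read 8.67 and 8.39 in esiOgt arrays and 8.98 and 8.93 in esiGFP arrays, a difference of -0.42 (SE 0.15). Both genes, named for their small p, had esiOgt arrays below the range of the esiGFP arrays. Ing2, a reader of methylated histone H3 in the complex, had a difference of -0.26 (SE 0.12), and Kdm5a, a histone H3 demethylase that binds Sin3, one of 0.36 (SE 0.14).

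Of the other Bap1 partners, all 10 of 10 measured had a higher mean in esiOgt cells, where 51.2% of all gene symbols did (9 of 10 after quantile normalization, where Ube2o turned). Leaving out 1 array at a time left 8 or 9 of the 10 higher. Their median log2 difference was 0.23 and the single values lay between 0.01 for Ube2o and 0.48 for Kdm1b. The groups did not overlap for 5 of the 10, against 39.5% of all gene symbols. A one-sided count was not particular to this list, since 9 of the 10 embryonic stem cell markers also had a higher mean. The list was chosen with earlier results of these data known. None passed an adjusted p of 0.05 in limma and 3 stood at an unadjusted p under 0.05, where 6.06% of all gene symbols did. That count was 1 after quantile normalization and without esiOgt replicate 1, and 0 without esiOgt replicate 2 or without either esiGFP array. Kdm1b, a lysine demethylase, read 8.06 and 8.27 in esiOgt arrays and 7.69 and 7.67 in esiGFP arrays, a difference of 0.48 (SE 0.13, unadjusted p = 0.0191, adjusted p = 0.674). Both esiOgt arrays lay above the control range, in a gene named for its small p. Mbd5, a methyl-CpG-binding domain protein of the PR-DUB complex, read 7.73 and 7.81 in esiOgt arrays and 7.42 and 7.47 in esiGFP arrays, a difference of 0.33 (SE 0.12). Bard1, partner of Brca1 in a ubiquitin ligase that acts on histone H2A, had a difference of 0.38 (SE 0.14) on its highest probe set. Its other 2 probe sets gave 0.06 and -0.17, so its direction is not settled. Asxl3, the third Asxl gene, was dim, with 5.72 and 6.11 in esiOgt arrays and 5.43 and 5.69 in esiGFP arrays, a difference of 0.35 (SE 0.19). Hcfc1, the partner shared by Bap1 and Ogt, read 11.002 and 11.49 in esiOgt arrays and 10.77 and 11.23 in esiGFP arrays, with overlapping groups and a difference of 0.25 (SE 0.25).

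Of 9 other histone deacetylases, 3 had a higher and 6 a lower mean in esiOgt cells (median -0.08), 0 passed and 1 stood at an unadjusted p under 0.05 (6.06% of all gene symbols did). Without esiOgt replicate 2 or without esiGFP replicate 1, 6 of the 9 had a higher mean. The gene at that level was Hdac7, a class IIa enzyme, at 8.08 and 8.15 in esiOgt arrays and 7.84 and 7.65 in esiGFP arrays, a difference of 0.37 (SE 0.13, adjusted p = 0.674 in limma). It no longer stood at that level after centring, after quantile normalization, with a variance trend or without any 1 of the arrays. The class IIa enzymes Hdac5 and Hdac4 differed in sign, at 0.44 (SE 0.23) for Hdac5 and -0.31 (SE 0.20) for Hdac4. Hdac5 ran between 0.22 without esiGFP replicate 2 and 0.67 without esiGFP replicate 1, and Hdac4 between -0.54 without esiOgt replicate 1 and -0.08 without esiOgt replicate 2. Hdac3, the catalytic subunit of the NCoR and SMRT corepressors, had -0.16 (SE 0.12). In this list the groups did not overlap for 5 of the 9 genes, against 39.5% of all gene symbols.

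NuRD and CoREST are the other corepressors that carry Hdac1 and Hdac2. The 17 subunits and associated factors described had 10 higher and 7 lower means in esiOgt cells (median 0.09). In limma 0 had an adjusted p under 0.05, and 0 an unadjusted p under 0.05 (6.06% of all gene symbols did). The groups did not overlap for 9 of the 17, against 39.5% of all gene symbols. The NuRD subunits Mta1 and Mta2 had differences of 0.28 (SE 0.17) and 0.26 (SE 0.14), the other Mta2 probe set gave 0.04, and the CoREST-associated Zmym3 had 0.27 (SE 0.15). Rcor3, a CoREST scaffold, read 7.92 and 8.16 in esiOgt arrays and 7.78 and 7.88 in esiGFP arrays, a difference of 0.21 (SE 0.14). For these 4 genes the esiOgt values lay above the esiGFP values on the probe set that stands for the gene, for Mta1 by only 0.0017. They were named for the smallest p in their list, a choice that favours groups lying apart.

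**Figure D4:**
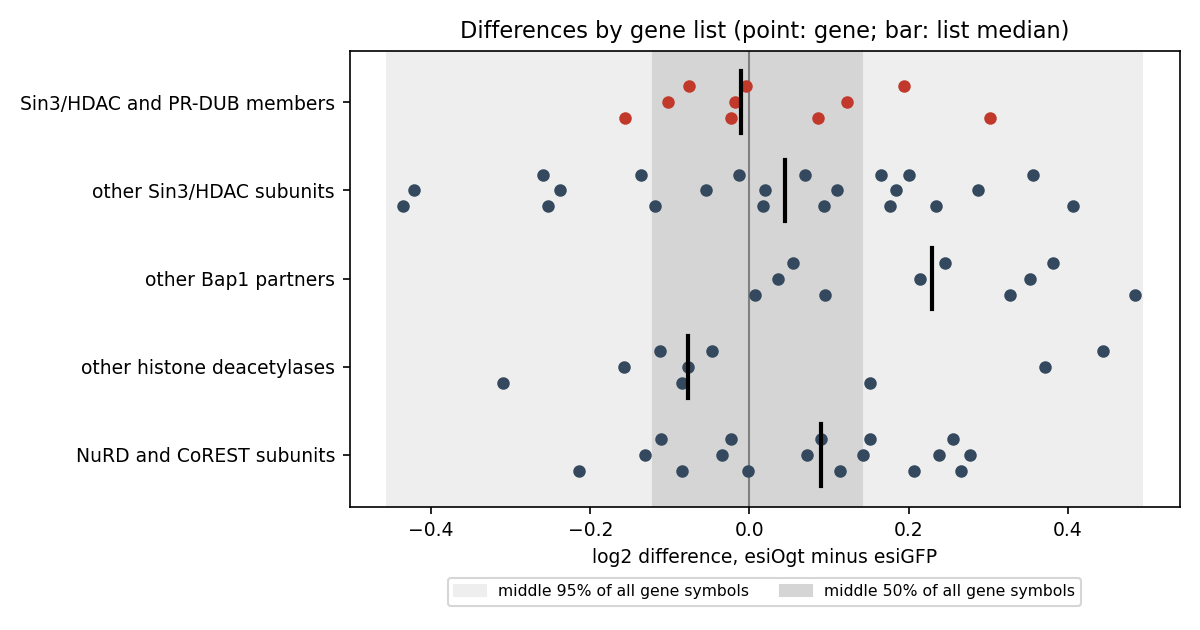
Log2 difference between esiOgt and esiGFP cells (x axis) of single genes (points) in the 10 members and 4 neighbouring lists (rows), with list medians as bars and the middle 50% and 95% of all gene symbols shaded. The members lie between -0.16 and 0.30 around a median of -0.01, and all 10 other Bap1 partners lie above 0 (9 after quantile normalization).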

How the data were processed

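Total RNA of 4 samples was measured on 1 array each. The deposited log2 expression values were made by the authors with RMA, per the submitters' processing notes, and the p-value and log2 fold change columns of the authors' deposited table with limma. The sources used here give no array type, software version or annotation build. All 34760 probe sets were fitted with lmFit and eBayes (limma 3.58.1, R 4.3.3), group as the only term, Benjamini-Hochberg adjustment over all probe sets and a threshold of 0.05. The fit matched the deposited p-values to within 4.84e-08. It has 2 residual degrees of freedom (4.38 after moderation). Counts over gene symbols use the adjusted p of that fit. The number of arrays limits the precision. Scan dates are not given, so batches could not be examined. The fit was tested on simulated data with noise drawn independently for each array. That test does not cover deviations shared by arrays of the same replicate number.

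The members and lists were chosen with earlier results of these data known. Named genes are the 10 members, Ogt and up to 4 genes per neighbouring list with the smallest unadjusted p. A NuRD and CoREST list member is not reported here. Hcfc1, Ube2o and the markers named lie outside that rule and were chosen after their values were seen. Paralog contrasts used the exact permutation test over arrays. Promoter sequences are from RefSeq (GRCm38.p6), matched by symbol. Alternatives were array centring, quantile normalization, a filter on level, probe sets naming 1 gene, 2 variance priors, a replicate block, averaging all probe sets of a gene and leaving out each array.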

Additional observations from a re-analysis of the deposited data

How the results depend on the processing

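Under every alternative that kept all 4 arrays, 0 members had an adjusted p under 0.05 in limma. The count over all probe sets was also 0, and was not made where a gene's probe sets were averaged. Among the members, centring on array medians gave Asxl1 a difference of 0.0024, and averaging all probe sets of a gene turned Foxk1 to -0.10 and the contrast Foxk1 minus Foxk2 to -0.027. The count of probe sets at an unadjusted p under 0.05 was 2565, and 1512 with probe sets above the median level, of which fewer were tested. With the replicate number as a block it was 5279, and 1 member stood there, Asxl2 (unadjusted p = 0.0400, adjusted p = 0.321 in limma), as did Asxl3 (unadjusted p = 0.0316) and Hdac5 (unadjusted p = 0.0133) of the other lists. At that level the block gave 4 of the 22 other Sin3/HDAC subunits, 4 of the 10 other Bap1 partners and 2 of the 9 other deacetylases. These counts are to be read beside the 5279 of all 34760 probe sets under the block, not beside the 6.06% of the main fit. The labels do not state that pairing. Deviations from the group means correlated at 0.479 across probe sets for arrays of the same number, and with only 2 pairs this does not establish it. The block brought no adjusted p under 0.05.

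Leaving out 1 array gave 1276 to 2788 probe sets at that level (1276 without esiGFP replicate 2 and 1481 without esiGFP replicate 1), 0 members there, and 5 to 6 members higher. Ogt lay between -1.72 and -1.36. Directions turned for Sap30 (-0.022 to 0.27), Bap1 (-0.064 to 0.018), Asxl1 (-0.069 to 0.061) and Foxk2 (-0.23 to 0.075). The contrasts ran over -0.44 to -0.26 for Sin3, 0.01 to 0.16 for Hdac, -0.41 to -0.21 for Asxl and 0.08 to 0.25 for Foxk. The 16 genes taken from the other lists by the smallest p kept their sign under the alternatives run for them (the filter on level removed Asxl3). Their groups did not overlap, so leaving out 1 array could not turn a sign. The variance priors, the block and the filter on level reuse the same difference. The kept signs therefore give no further support to these genes. Ube2o turned after quantile normalization, and Hcfc1 was not followed singly.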
